A study of Caenorhabditis elegans with 8 samples.

Results

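Adult-stage cuticle collagens of Caenorhabditis elegans were followed as 7 genes, chosen by name from a list of collagens of the adult cuticle: col-7, col-19, col-62, col-63, the strut genes bli-1 and bli-2, and rol-6. All 7 were found among the 46739 genes of the count table, and all 7 were among the 14772 genes that passed a filter on low counts. Another 171 cuticle collagen genes were counted, of which 133 passed. RNA came from whole hermaphrodites of the wild-type strain N2, aged 5 days as adults. Every group received an RNAi construct from young adulthood: 2 control libraries (numbered 1 and 3) the empty vector L4440, 3 libraries a construct labelled vab-3 isoform A, and 3 libraries a construct labelled vab-3 isoform C. vab-3 encodes a transcription factor of the Pax6 family. How many worms went into a library, and whether replicates were separate cultures, is not stated in the labels, so p-values measure the spread between these libraries only, which may be technical.

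The worm is wrapped in a cuticle of cross-linked collagens that the epidermis secretes afresh at each moult, with a different collagen set in larvae and in adults. Heterochronic genes time the change of set, and the transcription factor LIN-29 turns on adult genes such as col-19 at the last moult. The adult cuticle has a fluid-filled layer bridged by columns called struts, and loss of the strut collagens blisters it. Furrow collagens such as DPY-7 line the circumferential grooves of the cuticle and are made at every moult.

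Totals ran from 30289733 to 43364047 counts per library, and same-group libraries differed by more than sampling noise. Scaled to library size, counts of vab-3 were higher than in both controls in 5 of the 6 libraries labelled as RNAi against it. They gave 2.23 and 2.13 CPM (read counts normalised to the scaled library size) in the controls, 4.43, 5.52 and 4.38 CPM in isoform A libraries 1, 2 and 3, and 4.08, 2.04 and 4.84 CPM in isoform C libraries 1, 2 and 3. Isoform C library 2, with 87 counts against 83 and 64 in control libraries 1 and 3, lay slightly below both controls only once scaled. The groups are therefore called A-labelled and C-labelled. A-labelled libraries 2 and 3 stood apart from the other 6 on the first principal component, at 64.6 and 54.7 against -40.0 to 1.06. The intestine list, which includes the yolk genes of adult hermaphrodites, summed to between 41900 and 64360 CPM per library.

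col-7 and col-62 are neighbours on chromosome I (build WBcel235). col-7 lies on the forward strand from 7401132 to 7402761 and col-62 on the reverse strand from 7403291 to 7404374, with 529 bases between them. col-63 lies on the same chromosome from 8243694 to 8244963, on the reverse strand. The other members are bli-1 (chromosome II, 10708960 to 10712156, forward strand), bli-2 (chromosome II, 5651394 to 5652434, reverse strand), rol-6 (chromosome II, 8733050 to 8734239, forward strand) and col-19 (chromosome X, 421707 to 422691, forward strand). The bli-1 transcript has 5 exons, that of rol-6 has 3, and the others have 2. The library kit does not mark the strand, and 3 members lie within a longer gene of the other strand. bli-2 lies within zyg-1, a centriole kinase gene, and col-19 within ZK1193.2, in both cases with 0 exon bases in common. bli-1 lies within dph-2 and shares 7 exon bases with it. These surrounding genes varied little, with 89.7 to 99.8 CPM for zyg-1, 27.8 to 38.2 CPM for dph-2 and 20.1 to 26.7 CPM for ZK1193.2. None was highest in A-labelled library 2 or 3.

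In the control libraries, col-19 was by far the most abundant member per length of gene. On the authors' RPKM scale (reads per library total and gene length) its level was 52.7 ± 7.46 (mean ± SD, n = 2). rol-6, whose mutation rolls the animal along its long axis, came next at 2.33 ± 1.06 RPKM. The others lay below 1 RPKM, with col-62 at 0.812 ± 0.171, col-7 at 0.566 ± 0.155, col-63 at 0.429 ± 0.188, bli-2 at 0.330 ± 0.108 and bli-1 at 0.162 ± 0.0207 RPKM. col-19, rol-6 and col-62 held these places in both libraries, whereas the ranges of col-7 and col-63 overlapped, as did those of col-63 and bli-2. In A-labelled library 3 the order below col-19 (77.8 RPKM) was different. There col-63 and bli-2 stood at 15.4 and 15.2 RPKM, above rol-6 at 13.4, bli-1 at 9.73, col-62 at 4.94 and col-7 at 4.73 RPKM. col-19 made up 90.1 and 93.5% of the summed RPKM of the members in the controls and 55.1% in that library.

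**Figure D1:**
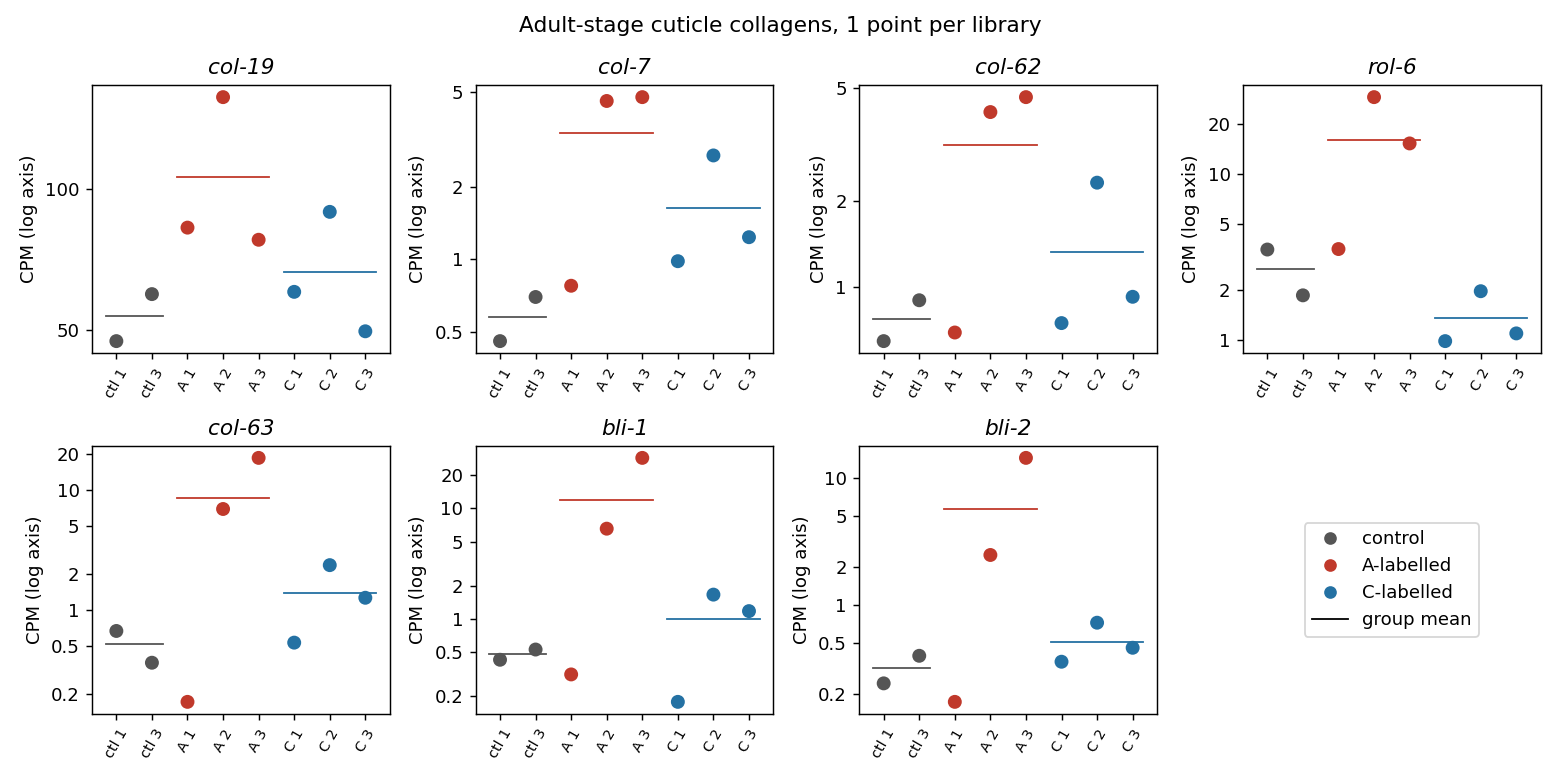
CPM of the 7 members (log axis), with 1 point per library and a horizontal line at each group mean (2 control, 3 A-labelled and 3 C-labelled libraries). A-labelled library 3 is the highest point for bli-1 (28.6 CPM), bli-2 (14.5 CPM) and col-63 (18.5 CPM), while A-labelled library 2 is the highest for col-19 (158 CPM) and rol-6 (29.3 CPM).

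The strut collagen gene bli-1 had the widest range of all members as a fold between its lowest and highest library. It stood at 0.429 and 0.531 CPM in control libraries 1 and 3, at 0.317, 6.56 and 28.6 CPM in A-labelled libraries 1, 2 and 3, and at 0.179, 1.66 and 1.18 CPM in C-labelled libraries 1, 2 and 3. A-labelled library 3 thus held 59.5 times the control mean, from 1110 counts against 16 in each control, while A-labelled library 1 lay below both controls with 11 counts. bli-2 stood at 0.241 and 0.398 CPM in the controls, at 0.173, 2.48 and 14.5 CPM in the A-labelled libraries, and at 0.358, 0.726 and 0.461 CPM in the C-labelled libraries. It repeated the order of bli-1 within the A-labelled group, with 6, 72 and 563 counts. With 6 to 12 counts in both controls, A-labelled library 1 and C-labelled library 1, differences among those 4 libraries were not detectable for bli-2 at this depth.

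bli-6, a strut collagen gene outside the list of 7 that was looked at because of these values, had the same order within the A-labelled libraries. It measured 0.751 and 1.06 CPM in the controls, 0.374, 9.97 and 28.7 CPM in A-labelled libraries 1, 2 and 3, and 1.22, 4.57 and 3.14 CPM in the C-labelled libraries. Unlike bli-1 and bli-2, it lay above both controls in all 3 C-labelled libraries.

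col-63 behaved like the strut genes, with 0.671 and 0.365 CPM in the controls and 0.173, 6.94 and 18.5 CPM in the A-labelled libraries. In C-labelled libraries 1, 2 and 3 it stood at 0.537, 2.37 and 1.27 CPM. A-labelled library 1, with 6 counts, was the lowest of all 8, as it was for bli-2.

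The neighbours col-7 and col-62 had similar values to each other in every library and a narrower range, as a fold, than the strut genes. col-7 measured 0.456 and 0.697 CPM in the controls, 0.777, 4.59 and 4.76 CPM in the A-labelled libraries and 0.984, 2.72 and 1.24 CPM in the C-labelled libraries. All 6 libraries labelled as RNAi against vab-3 lay above both controls for col-7, though A-labelled library 1 only narrowly, with 27 counts against 21 in control library 3. col-62 measured 0.644 and 0.896 CPM in the controls, 0.690, 4.11 and 4.63 CPM in the A-labelled libraries and 0.745, 2.32 and 0.922 CPM in the C-labelled libraries. Its A-labelled library 1 and C-labelled library 1 lay between the 2 controls.

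col-19, the classical reporter of the adult epidermis, had the narrowest range of the members as a fold. It measured 47.3 and 59.6 CPM in the controls, 82.8, 158 and 78.0 CPM in the A-labelled libraries and 60.3, 89.5 and 49.6 CPM in the C-labelled libraries. In contrast to the strut genes, it was higher than in both controls in A-labelled library 1 as well.

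rol-6 stood apart from the others in the C-labelled libraries. It measured 3.51 and 1.86 CPM in the controls, 3.54, 29.3 and 15.4 CPM in the A-labelled libraries and 0.984, 1.97 and 1.10 CPM in the C-labelled libraries. It was the only member whose C-labelled libraries all lay below the control mean. The C-labelled range still overlapped the controls.

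A-labelled libraries 2 and 3 differed from each other in which collagens were high. As a ratio of library 3 to library 2, with 95% counting intervals that cover counting error of these libraries only, bli-2 stood at 5.83 (4.56 to 7.56), bli-1 at 4.36 (3.73 to 5.11) and col-63 at 2.66 (2.27 to 3.13). The intervals of col-62 (1.13, 0.890 to 1.43) and col-7 (1.04, 0.826 to 1.31) included equality. rol-6 and col-19 were lower in library 3, at 0.525 (0.472 to 0.584) and 0.494 (0.472 to 0.518). Over the 140 cuticle collagens tested, 69 were higher in library 3 and 71 in library 2, with a median ratio of 0.986. Ranked by this ratio, bli-2 and bli-1 held places 1 and 2, col-63 place 9, col-62 and col-7 places 62 and 65, and rol-6 and col-19 places 111 and 116. bli-6 held place 7. The ranking was made after the values of the strut genes had been seen, and each side of the ratio is 1 library.

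**Figure D2:**
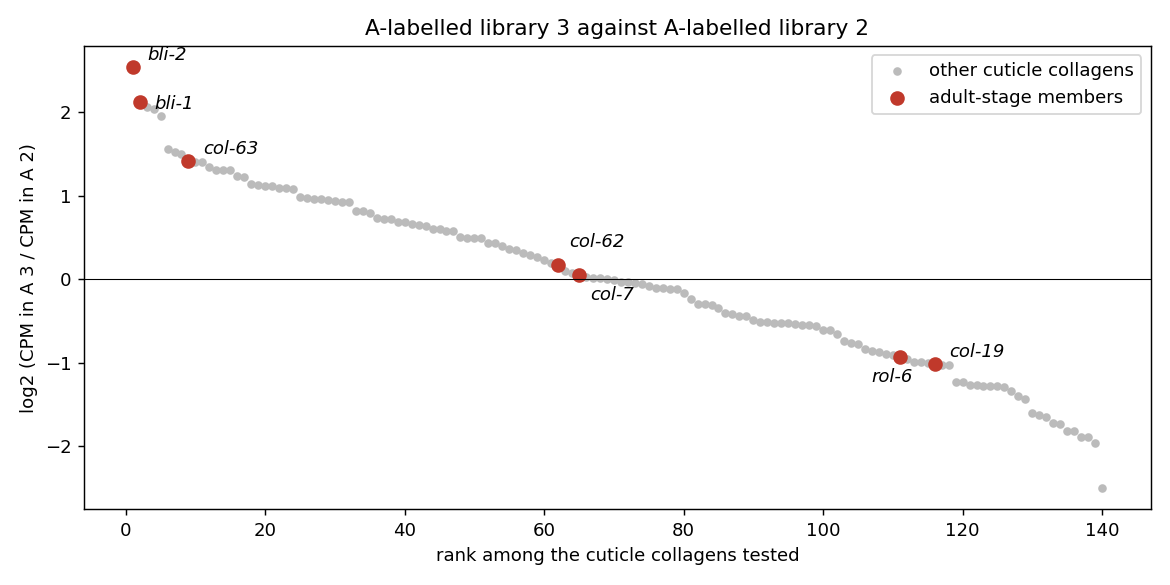
Log2 ratio of CPM in A-labelled library 3 to CPM in A-labelled library 2 for the 140 cuticle collagens tested, in order of the ratio, with the 7 members in red. The strut genes bli-2 and bli-1 lead the ranking (2.54 and 2.12), col-62 and col-7 lie near the middle, and rol-6 (-0.93) and col-19 (-1.02) lie in the lower part.

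The comparison of A-labelled with control libraries asked which genes differ under the isoform A construct. All 7 members had a higher mean, as 54.5% of all 14772 genes tested did by log2 difference, with a median log2 difference of 2.57 against 0.03 over all genes. None passed the threshold of an adjusted p of 0.05, and 0% of all genes did (edgeR's quasi-likelihood test, adjusted over all genes). At an unadjusted p below 0.05, 5 of the 7 were higher, where 13.7% of all genes tested and 88 of the 133 other cuticle collagens were. Of those 133, 126 had a higher mean, with a median log2 difference of 2.32. The log2 difference was 4.62 ± 1.86 (SE) for bli-1 (edgeR, adjusted p = 0.184), 4.18 ± 1.71 for bli-2 (edgeR, adjusted p = 0.188) and 4.01 ± 1.69 for col-63 (edgeR, adjusted p = 0.197). It was 2.57 ± 0.89 for rol-6, 2.55 ± 0.87 for col-7, 2.03 ± 0.87 for col-62 and 0.99 ± 0.40 for col-19, with edgeR adjusted p of 0.148, 0.141, 0.195 and 0.182. All 3 A-labelled libraries lay above both controls for col-7, col-19 and rol-6, a pattern that 21.5% of all genes tested showed, and overlapped them for the other 4. For rol-6 this was a near tie, with 3.539 CPM in A-labelled library 1 against 3.515 in control library 1. Their ratio was 1.01, with a 95% counting interval of 0.781 to 1.30. For col-7 the nearest libraries had 27 counts (A-labelled library 1) and 21 (control library 3).

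For most members these differences depended on A-labelled libraries 2 and 3. Without A-labelled library 1, 5 members passed as higher (col-7, col-62, col-63, bli-2 and rol-6, edgeR adjusted p 0.0198 to 0.0426), as did 6.47% of all genes tested. Without libraries 2 and 3 the median log2 difference was -0.13, and the differences of col-62, col-63, bli-1 and bli-2 were below 0, while those of col-19 (0.65), col-7 (0.46) and rol-6 (0.40) stayed above 0. Leaving out library 3 alone lowered bli-1 to 2.80, bli-2 to 2.02 and col-63 to 2.71 on the log2 scale, and rol-6 was then at 2.58. limma-voom, on all libraries, gave 3.07 for bli-1, 2.63 for bli-2 and 2.48 for col-63. DESeq2, on all libraries, called 4 members as higher (col-7, bli-1, bli-2 and rol-6, adjusted p 0.0139 to 0.0457) beside 5.23% of all genes.

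Between the C-labelled and control libraries, 6 members had a higher mean (46.5% of all genes did) and rol-6 a lower one, and none passed, against 0.0948% of all genes tested. By edgeR 0 of the 7 had an unadjusted p below 0.05, where 7.34% of all genes had, and DESeq2 called 0 members beside 0.833% of all genes as higher. The median log2 difference was 0.81. It was 1.54 ± 0.86 for col-7 (edgeR, adjusted p = 0.770), 1.42 ± 1.66 for col-63, 1.10 ± 1.84 for bli-1, 0.81 ± 0.87 for col-62, 0.72 ± 1.79 for bli-2, 0.32 ± 0.39 for col-19 and -0.99 ± 0.86 for rol-6 (edgeR, adjusted p = 0.847). With standard errors of up to 1.84, these data could not show a moderate change of the strut genes. col-7 was the only member with no overlap between the groups, a pattern that 12.7% of all genes tested showed in that direction.

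The A-labelled and C-labelled libraries were also compared directly. All 7 members had a higher mean in the A-labelled libraries (median log2 difference 2.60, with 54% of all genes above 0), none passed (0.0406% of all genes tested did), and 3 had an unadjusted p below 0.05 as higher, beside 11.6% of all genes. Of the 133 other cuticle collagens, 130 had a higher mean (median log2 difference 1.72), 1 passed, and 78 had an unadjusted p below 0.05 as higher. The 3 members were rol-6, bli-1 and bli-2. rol-6 gave 16.1 ± 12.9 against 1.35 ± 0.540 CPM (mean ± SD, n = 3 each), a log2 difference of 3.55 ± 0.80 (edgeR, adjusted p = 0.137), and DESeq2 called it alone of the members (3.54, adjusted p = 5.74e-04) beside 3.78% of all genes as higher. Its A-labelled libraries all lay above the C-labelled ones, as they did for 12.7% of all genes. bli-1 and bli-2 had log2 differences of 3.53 ± 1.42 and 3.45 ± 1.34, with edgeR adjusted p of 0.251 and 0.241, and 1.70 and 1.29 without A-labelled library 3. With the replicate number as a block, col-19 passed at a log2 difference of 0.64 (edgeR, adjusted p = 0.0486), and rol-6 did not (3.40, adjusted p = 0.0787), while 7.67% of all genes passed as higher. Without A-labelled library 1, rol-6 and bli-2 passed (edgeR, adjusted p = 0.00454 and 0.0430) beside 4.76% of all genes. Without A-labelled libraries 2 and 3 the median was -1.10.

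Furrow and body-shape collagens gave a different picture from the members other than rol-6 in the C-labelled libraries. The 133 cuticle collagens outside the members, which include both lists, were split. Against control, 76 had a higher and 57 a lower mean in the C-labelled libraries, with a median log2 difference of 0.11. Of 6 furrow collagen genes (dpy-2, dpy-3, dpy-7, dpy-8, dpy-9 and dpy-10), all 6 had a higher mean in the A-labelled and all 6 a lower mean in the C-labelled than in the control libraries, with medians of 2.03 and -0.80 and 0 past the threshold in either comparison. dpy-7 measured 1.64 and 1.73 CPM in the controls, 2.99, 14.9 and 9.73 CPM in the A-labelled and 0.775, 1.62 and 1.12 CPM in the C-labelled libraries. The list of body-shape collagens held 11 genes, among them the strut gene bli-6. Of these, 11 had a higher mean in the A-labelled libraries and 10 a lower mean in the C-labelled libraries. The medians were 2.65 and -0.64, with again 0 past the threshold. The exception in the C-labelled libraries was bli-6. col-17, described as a larval collagen, was the only tested gene of a list of 3 larval and dauer collagens. It measured 10.3 and 6.74 CPM in the controls, 13.03, 86.5 and 59.8 CPM in the A-labelled and 2.98, 7.64 and 3.57 CPM in the C-labelled libraries.

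Set side by side as log2 differences from the control mean, rol-6 followed the furrow and body-shape genes more closely than the other members did. Over the 8 libraries it correlated at r = 0.986 with the mean furrow profile and 0.995 with the body-shape profile (without bli-6). The other members gave 0.656 to 0.779 and 0.672 to 0.770. Like every other member, rol-6 is in the adult list by name, and these correlations do not decide its place. col-19 also correlated more with the furrow (0.719) and body-shape (0.757) profiles than with bli-1 (0.517), while rol-6 correlated with bli-1 at 0.767. In C-labelled libraries 1, 2 and 3 rol-6 lay at -1.45, -0.45 and -1.30, the furrow median at -1.18, -0.42 and -0.62 and the body-shape median at -1.33, -0.02 and -0.92. In the same libraries col-7 lay at 0.77, 2.24 and 1.10, col-63 at 0.05, 2.19 and 1.29, and bli-2 at 0.16, 1.18 and 0.53. Of these libraries, bli-1 was below the control mean only in library 1, at -1.43, and lay at 1.79 and 1.30 in libraries 2 and 3. The difference between these courses was not tested.

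**Figure D3:**
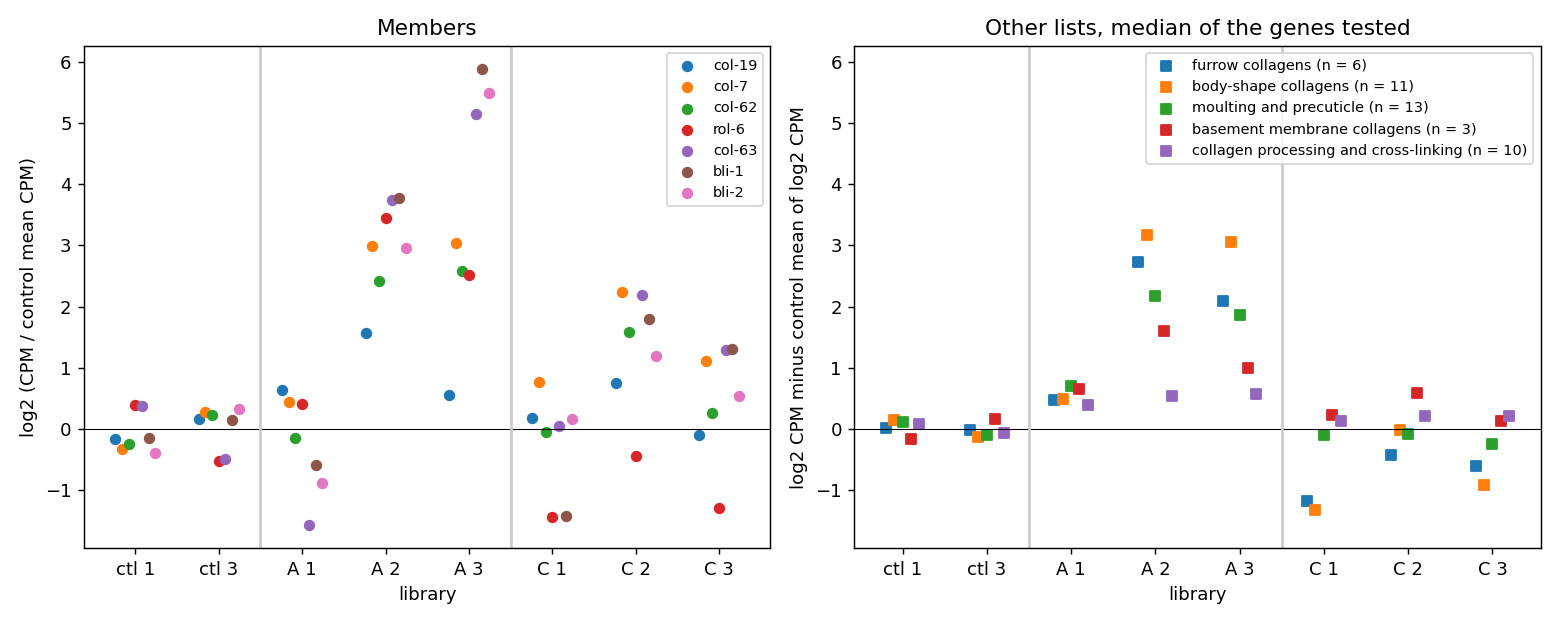
Log2 of CPM over the control mean CPM for each member by library (left), and the median over each list of log2 CPM minus the control mean of log2 CPM (right), with points offset sideways for clarity. In A-labelled library 3 bli-1, bli-2 and col-63 reach 5.89, 5.50 and 5.16, while the furrow median is 2.09; in the C-labelled libraries rol-6 and the furrow median are below 0.

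The summed RPKM of the 7 members was divided by that of the 6 furrow collagens in each library. Because furrow collagens are also made at the moult to the adult, this ratio sets the adult list against collagens of all moults and is not a measure of adult against larval synthesis. The ratio was 3.74 and 4.70 in the controls, 4.604, 2.51 and 2.62 in A-labelled libraries 1, 2 and 3, and 10.03, 10.1 and 6.21 in C-labelled libraries 1, 2 and 3. All 3 C-labelled libraries lay above the other 5. In those libraries the denominator was low, at 6.34, 9.53 and 8.69 RPKM against 14.1 and 13.2 RPKM in the controls, while the members summed to 63.6, 96.5 and 53.97 RPKM against 52.6 and 62.1 RPKM. Without col-19 the ratio was 0.369 and 0.308 in the controls, 0.264, 0.559 and 1.17 in the A-labelled and 0.553, 1.04 and 0.580 in the C-labelled libraries. The C-labelled libraries stayed above the controls on that count, and A-labelled library 3 became the highest of all. The 2 readings therefore placed A-labelled libraries 2 and 3 on opposite sides of the controls. Without col-19, rol-6 held 3.08 of 5.19 and 1.58 of 4.07 RPKM in the controls. It held 3.09 of 5.04, 24.05 of 42.5 and 13.4 of 63.3 RPKM in A-labelled libraries 1, 2 and 3. In C-labelled libraries 1, 2 and 3 it held 0.856 of 3.51, 1.66 of 9.88 and 0.943 of 5.05 RPKM. The reading without col-19 thus leaned on rol-6, above all in control library 1 and A-labelled libraries 1 and 2. No test was made on these sums.

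**Figure D4:**
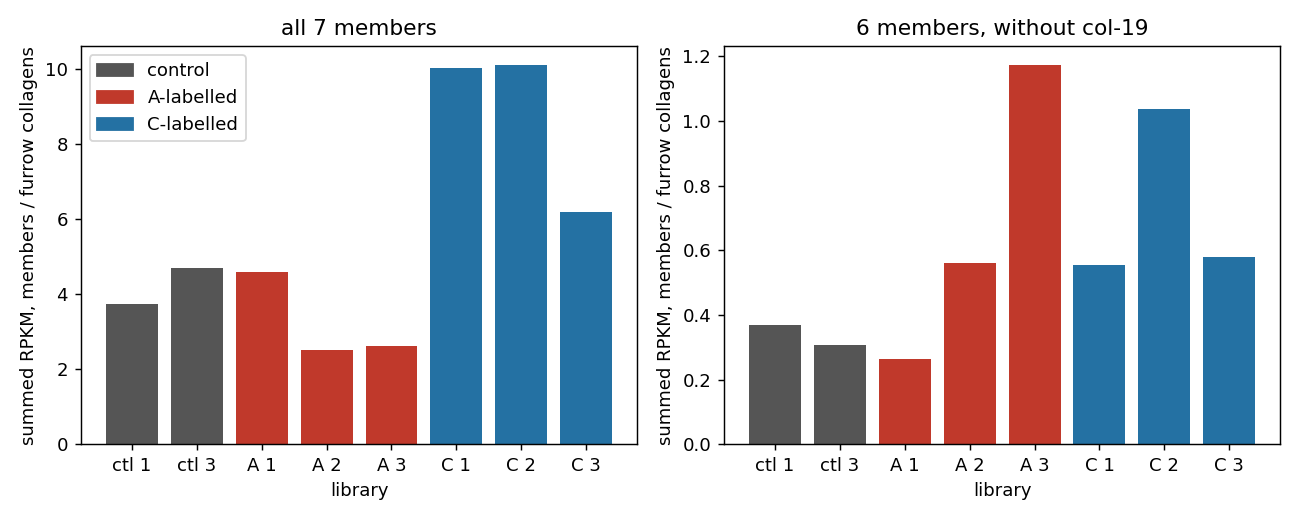
Summed RPKM of the adult-stage members divided by the summed RPKM of the 6 furrow collagens in each library, with all 7 members (left) and without col-19 (right). With all members the C-labelled libraries are highest (6.21 to 10.1), and without col-19 A-labelled library 3 is highest (1.17).

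Members also made up a small part of all cuticle collagen expression. Together they accounted for 1.78 and 2.20% of the summed RPKM of the cuticle collagens in the controls, 1.66, 1.91 and 2.58% in the A-labelled and 2.08, 1.93 and 2.24% in the C-labelled libraries. Without col-19 the share was 0.176 and 0.144% in the controls, 0.0949, 0.425 and 1.16% in the A-labelled libraries and 0.115, 0.197 and 0.209% in the C-labelled libraries. A-labelled library 3 held the highest share on both counts.

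Genes that time the adult cuticle or build it were given for the same libraries. Of 10 heterochronic genes, 8 had a higher mean in A-labelled than in control libraries, with a median log2 difference of 0.37, and 0 passed. lin-29 measured 1.56 and 1.36 CPM in the controls, 1.99, 3.73 and 3.14 CPM in the A-labelled and 1.70, 1.85 and 1.53 CPM in the C-labelled libraries (A against control 1.01 ± 0.28, edgeR, adjusted p = 0.121). lin-28, which promotes larval fates, had a log2 difference of -0.27 ± 0.07 in the same comparison (edgeR, adjusted p = 0.121). Some other genes of the list that act in larval stages had higher means in the A-labelled libraries. lin-14 was at 8.96 ± 4.25 against 4.48 ± 1.55 CPM (edgeR, adjusted p = 0.166), lin-42 at a log2 difference of 1.14 ± 0.35 (edgeR, adjusted p = 0.127) and hbl-1 at 0.71 ± 0.41 (edgeR, adjusted p = 0.312). lin-41, another such gene, had a slightly lower mean, at 760 ± 34.8 against 775 ± 43.8 CPM (edgeR, adjusted p = 0.804). The choice of these genes followed a look at their values. In bulk samples, a change in the number of cells that express a gene and a change of RNA per cell cannot be told apart. Of 10 genes that modify and cross-link collagens, 9 had a higher mean in the A-labelled libraries, with a median of 0.50 and 0 past the threshold. The list was led by dpy-18, a collagen prolyl hydroxylase subunit (43.6 ± 2.69 against 27.5 ± 1.88 CPM), and pdi-2, its partner subunit (661 ± 59.6 against 474 ± 26.9 CPM). Of 13 moulting and precuticle genes, 13 had a higher mean, with a median of 1.66 and 0 past the threshold. The basement membrane collagens emb-9, let-2 and cle-1, which are not part of the cuticle, also had higher means, with a median of 1.13 and 0 past the threshold. For cle-1 the log2 difference was only 0.15 ± 0.11, and its A-labelled and control ranges overlapped.

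The sums of sperm, body wall muscle and pharynx markers were highest in A-labelled libraries 2 and 3, while the sums of germline and neuron markers varied little. The 5 sperm genes summed to 1.74 and 1.26 CPM in the controls, 1.15, 3.83 and 8.47 CPM in A-labelled libraries 1, 2 and 3, and 1.01, 3.23 and 1.67 CPM in C-labelled libraries 1, 2 and 3. Within each RNAi group that is the same order of libraries as for bli-1, bli-2, col-63, col-7 and col-62, and not that of col-19 and rol-6, which were highest in A-labelled library 2. The 5 body wall muscle genes summed to 420 and 541 CPM in the controls, 792, 1601 and 1175 CPM in the A-labelled and 602, 752 and 523 CPM in the C-labelled libraries. The 4 pharynx genes summed to 26.8 and 44.0 CPM in the controls, 50.5, 133 and 78.2 CPM in the A-labelled and 39.1, 49.7 and 45.1 CPM in the C-labelled libraries. Not every gene followed its sum, as spe-9 and tni-4, named after their values were seen, did not. The sperm gene spe-9 measured 0.380 CPM (11 counts) in A-labelled library 2, below control library 1 at 0.4025 CPM. The pharynx gene tni-4 measured 16.55 CPM in A-labelled library 3 and 16.79 CPM in C-labelled library 3. The 5 epidermis genes had 0 members at 0 counts and ranged from 323 to 552 CPM, with the highest sum in A-labelled library 2. The 5 early embryo genes summed to 7.84 and 10.5 CPM in the controls, 14.6, 15.3 and 18.7 CPM in the A-labelled and 16.8, 21.0 and 18.6 CPM in the C-labelled libraries. The 5 neuron genes summed to 173 to 187 CPM and the 5 germline genes to 4748 to 5015 CPM. A single gene held most of each sum, and others varied more. Between A-labelled and control libraries, 4 germline genes had a lower mean and 1 a higher one. glp-1 was at -0.27 ± 0.05 and him-3 at -0.25 ± 0.07 (log2, edgeR, adjusted p = 0.121 for both). Of the neuron genes 3 were higher and 2 lower. In A-labelled library 2 rab-3 reached 5.49 CPM against 2.47 and 2.92 in the controls, and ric-4 7.83 against 3.41 and 4.02. The part of these cells in the values of the collagens was not tested.

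The genes most like the members over the 8 libraries were taken as those with the highest Pearson correlation between their log2 CPM and the mean standardised profile of the 7, among 4587 named genes of at least 5 CPM. They were col-14 (r = 0.977), col-97 (r = 0.977), the ground-like gene grl-16 (r = 0.966), the peptidyl-prolyl isomerase gene fkb-5 (r = 0.964) and col-71 (r = 0.963). With A-labelled libraries 2 and 3 left out, r over the other 6 libraries was 0.850, 0.844, 0.689, 0.701 and 0.850 in the same order. These values are given as a measure of likeness only. col-14 measured 1.69 and 1.69 CPM in the controls, 1.61, 13.3 and 23.4 CPM in the A-labelled and 1.01, 3.19 and 2.19 CPM in the C-labelled libraries. Like bli-1, it was higher in A-labelled library 3 than in library 2 and lowest in C-labelled library 1.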

How the data were processed

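Whole-worm RNA of 8 libraries was sequenced. Reads were processed with TopHat2 2.1.0, featureCounts 1.5.0 and bcl2fastq 1.8.4 against build WBcel235, per the submitters' processing notes. How multiply mapped reads were counted is not given in the sources used here, so collagen genes with similar copies may share reads. The authors deposited whole-number counts, RPM (each count scaled to its column total) and RPKM (RPM divided by 1 length per gene). RPM served only to recover those lengths. RPKM served for levels between genes and for sums, and counts for all tests.

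Genes were kept by edgeR's filter by group, whose minimum count of 10 came to 0.291 CPM. bli-2 reached it in 6 libraries (1 control), bli-1 and col-63 in 7, and the other members in all 8. Library sizes were scaled by TMM factors of 0.957 to 1.02. edgeR 4.0.16 (R 4.3.3) fitted 1 robust quasi-likelihood model with 3 groups, because the controls are only 2. Two-sided p-values were adjusted (Benjamini-Hochberg) over all genes in each of 3 comparisons. The SE was taken from the log2 difference and the F statistic. The comparisons of A-labelled and C-labelled libraries with control share the same 2 controls. Log2 CPM of lists used a prior count of 2. The fit was run on simulated counts only as a check of the code, with a spread set by hand and not taken from these libraries. It does not show how well changes would be found in these data.

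The members and lists were chosen with earlier results of these data known. Named genes are the 7 members, the genes of each list with the smallest p, the 5 most alike in profile, and genes around a member, named for their position. Others are said to be named after their values were seen (such as bli-6, lin-14, lin-41 and spe-9). Same-numbered A-labelled and C-labelled libraries deviated from their group means together (r across genes of 0.605, 0.433 and 0.220 for numbers 1, 2 and 3). For controls 1 and 3, r was 0.216 and 0.025 with A-labelled and 0.319 and 0.199 with C-labelled libraries. Libraries of unlike number were not compared, and the labels state no pairs, so these values do not establish pairing. The main model had no block, and the replicate block was fitted only as an alternative. With it 1702 genes passed in A against C, where 6 did in the main model. Alternatives were RLE and upper-quartile factors, other filters, DESeq2 1.42.0, limma-voom (limma 3.58.1), a fit that is not robust, only the groups compared, the replicate block, and libraries left out.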

Additional observations from a re-analysis of the deposited data

How the results depend on the processing

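Members past the threshold numbered 0 in each of the 3 comparisons. For A against control the count was 4 with DESeq2 and 0 to 5 with 1 library left out. For A against C it was 1 with the replicate block, 1 with DESeq2 and 0 to 2 with 1 library left out. For C against control it was 0 in every alternative run. The replicate block changed no other call of a member, and turned col-19 in C against control from 0.32 to -0.0057. Of 384 single-member log2 differences under the alternatives, 361 kept direction and side of the threshold, 13 passed it and 10 turned direction. The other 9 turns came without A-labelled libraries 2 and 3, which leaves 1 A-labelled library and was added once the values were known. Against control these were col-62 (-0.13), col-63 (-1.57), bli-1 (-0.57) and bli-2 (-0.84). Against the C-labelled libraries they were col-7 (-1.10), col-62 (-0.96), col-63 (-3.003), bli-1 (-1.68) and bli-2 (-1.57). Without A-labelled library 3 and C-labelled library 2, also added then, no member passed. A filter of 1 CPM in every library of a group kept only 2 members. Members over furrow collagens, as log2 relative to control, was -0.75 and -0.69 in A-labelled libraries 2 and 3 by summed RPKM and 0.27 and 1.46 by mean log2 CPM; in A-labelled library 1 it was 0.13 and -0.65. In the C-labelled libraries it was above 0 by both. With 6 to 33 counts in several libraries, bli-1, bli-2, col-7, col-62 and col-63 are limited by depth outside A-labelled libraries 2 and 3.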
